A study of Homo sapiens with 6 samples.

Results

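The genes described here are 10 kinases and scaffold proteins of the JNK pathway, *MAPK8*, *MAPK9*, *MAPK10*, *MAP2K4*, *MAP2K7*, *MAP3K1*, *MAP3K5*, *MAP3K11*, *MAPK8IP1* and *MAPK8IP3*, picked by symbol from the 25368 different symbols of each deposited table. All 10 had a row in both tables. RNA-seq was done on MRC5 cells, human embryonic lung fibroblasts that had been immortalized with an hTERT lentivirus, as 6 libraries with 1 library per condition. In the JUN overexpression experiment, cells were infected for 2 h with adenovirus carrying an empty vector (con), FLAG-tagged wild-type JUN (JUN WT) or FLAG-tagged JUN AA, and cultured for 3 days. JUN AA is an inactive mutant in which both serines that JNK phosphorylates in the transactivation domain of JUN are changed to alanine. In the JNKi experiment, untreated MRC5 cells were compared with induced CAFs (iCAFs), which are MRC5 cells kept for 7 days in medium conditioned by MDA-MB-231 breast cancer cells, and with iCAFs given 1 µM of the JNK inhibitor JNK-IN-8 for 48 h (iCAFs+JNKi). Per the labels, iCAFs without the inhibitor received the vehicle DMSO, and no vehicle is named for MRC5. The study collected conditioned medium from cells kept without serum, and maintained MRC5 cells with serum. Whether serum was added back for iCAFs is not stated, so a difference in serum cannot be told apart from factors of the cancer cells.

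The JNK pathway is a relay of kinases that answers stress and inflammatory cytokines. At its top, MAP3Ks such as MEKK1 (*MAP3K1*), ASK1 (*MAP3K5*) and MLK3 (*MAP3K11*) phosphorylate the MAP2Ks MKK4 (*MAP2K4*) and MKK7 (*MAP2K7*). These in turn activate JNK1 (*MAPK8*), JNK2 (*MAPK9*) and JNK3 (*MAPK10*), which phosphorylate JUN and other proteins. The scaffolds JIP1 (*MAPK8IP1*) and JIP3 (*MAPK8IP3*) hold kinases of successive levels together and also link cargo to motor proteins. *MAPK8* and *MAPK9* are used in most tissues, while *MAPK10* is best known from brain and heart. Pathway activity is set by phosphorylation, which mRNA levels do not measure.

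Values are FPKM, fragments scaled to exon length and to the mapped fragments of a library, computed by the authors for each library. Levels of different genes can thus be compared per length within a library, but FPKM is not adjusted for base composition. Differences are of log2(FPKM + 1), on which the change of a gene with a low value appears too small, and were taken only within a table. A difference counted as 1.5-fold when it reached 0.58 on that scale. With 1 library per condition there is no spread between replicates, so no difference below has a replicate check or a p-value. The number of reads is unknown. Genes that reached a mean of 1 FPKM over the libraries of a table, 10311 for JUN overexpression and 11780 for JNKi, form the background. In the JNKi table all 10 members passed this filter. For JUN overexpression 9 did, as *MAP3K1* had a mean below 1 FPKM. The FPKM summed to between 494603 and 613184 in the libraries of the JUN overexpression table, JUN AA being the largest, and to between 359944 and 399532 in the JNKi table. *JUN* was at 25.5 (con), 4543 (JUN WT) and 291 FPKM (JUN AA), above con in both libraries labelled as overexpressing it. JUN WT and JUN AA thus differed in the level of *JUN* mRNA as well as in the mutated serines, which cannot be told apart here. Each of 11 fibroblast markers was at 1 FPKM or more in all 6 libraries. Of the markers of other cell types, the epithelial *CDH1*, endothelial *CDH5* and T cell gene *CD3E* were listed at 0 in all of them. *EPCAM*, another epithelial marker, reached at most 0.24 FPKM, in MRC5. The epithelial keratins *KRT8* and *KRT18*, the macrophage marker *CD68* and the neuronal marker *TUBB3* were above 1 FPKM in all 6 libraries. The keratin *KRT19* reached 1.78 FPKM in MRC5 and the neuronal marker *SNAP25* 2.27 FPKM in iCAFs. Other endothelial and leukocyte markers stayed below 1 FPKM, though not all at 0.

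**Figure D1:**
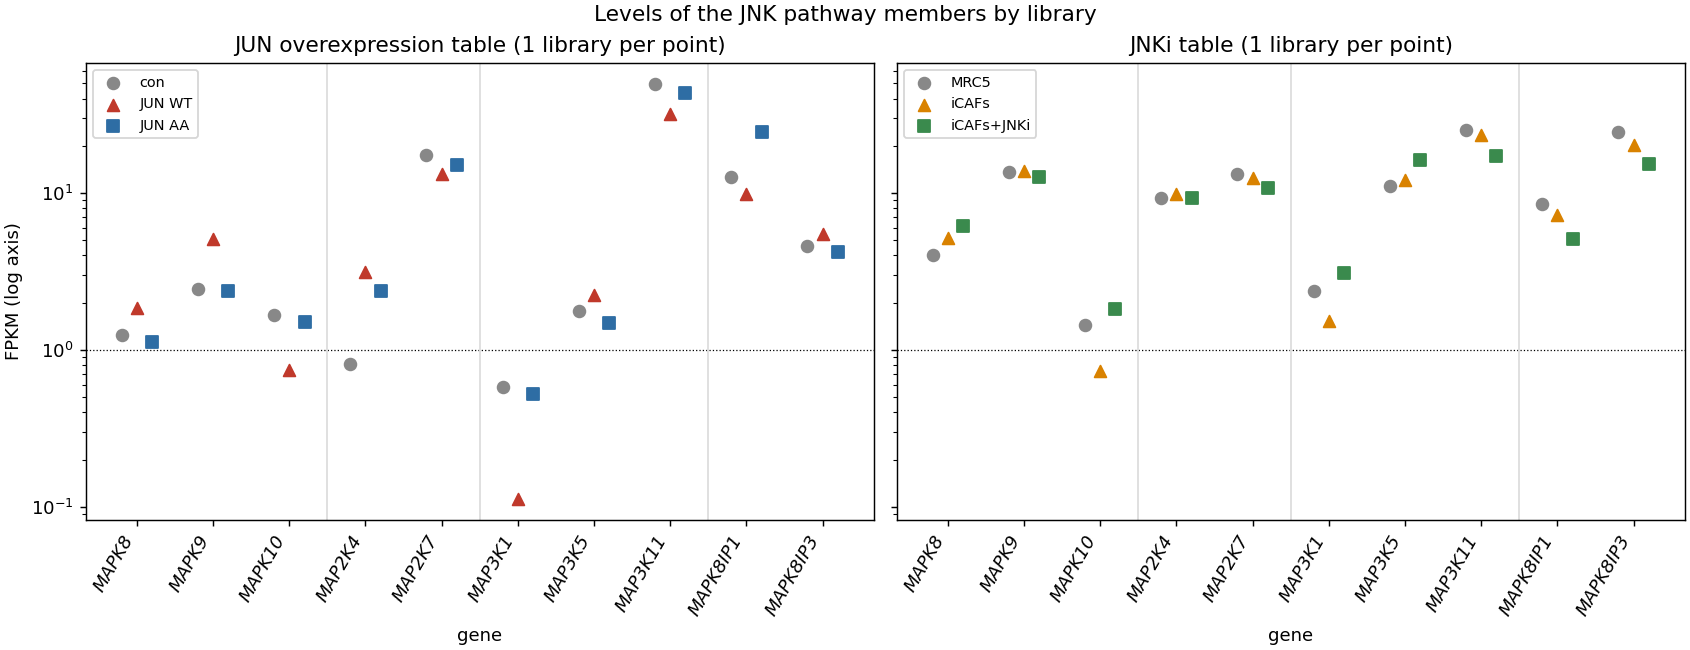
FPKM (log axis) of the 10 members, each point being 1 library, with the JUN overexpression table on the left and the JNKi table on the right; the dotted line marks 1 FPKM and grey lines separate JNKs, MAP2Ks, MAP3Ks and scaffolds. *MAP3K11* is the highest member in con, JUN WT and JUN AA, *MAP2K4* lies above con in both JUN libraries, and *MAPK10* is lower in JUN WT and in iCAFs than in the other libraries of the respective table.

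Because JUN acts at promoters and enhancers through the AP-1 heptamer TGANTCA, and together with ATF2 through the CRE octamer TGACGTCA, both motifs were searched on both strands in the 250 bases before each RefSeq gene start (build GRCh38.p14). The motifs read the same on either strand and neither contains the other. Windows were found for 8 members, 13 windows in all, and *MAP3K1* and *MAPK8IP1* had no entry. Of all 35116 windows, 6.57% held the heptamer and 1.65% the octamer. Among the members, 1 window held the heptamer, the second start of *MAPK10*, 38 bases before it. Whether this or any other listed start is used in MRC5 cells was not tested. The octamer stood 79 bases before the first start of *MAPK10* and 107 bases before the start of *MAPK8IP3*. The windows of *MAP2K4* and of the first start of *MAPK9*, shown as those of the members highest in JUN WT relative to con, held neither, and that of *MAPK10* is shown for its heptamer (motif in capitals, 5′ to 3′). They lie at chr17:12020627-12020876 (plus strand), chr5:180292084-180292333 (minus strand) and chr4:86370868-86371117 (minus strand).
MAP2K4: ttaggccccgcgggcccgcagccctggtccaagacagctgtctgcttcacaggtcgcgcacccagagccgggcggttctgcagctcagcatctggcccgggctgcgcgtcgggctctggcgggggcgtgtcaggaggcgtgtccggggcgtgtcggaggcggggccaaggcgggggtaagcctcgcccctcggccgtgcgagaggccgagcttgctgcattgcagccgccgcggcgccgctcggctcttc
MAPK9: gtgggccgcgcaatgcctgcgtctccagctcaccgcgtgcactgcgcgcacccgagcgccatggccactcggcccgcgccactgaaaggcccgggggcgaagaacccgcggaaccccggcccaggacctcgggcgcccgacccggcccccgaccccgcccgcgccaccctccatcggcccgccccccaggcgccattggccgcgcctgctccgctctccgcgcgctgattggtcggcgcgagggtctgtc
MAPK10: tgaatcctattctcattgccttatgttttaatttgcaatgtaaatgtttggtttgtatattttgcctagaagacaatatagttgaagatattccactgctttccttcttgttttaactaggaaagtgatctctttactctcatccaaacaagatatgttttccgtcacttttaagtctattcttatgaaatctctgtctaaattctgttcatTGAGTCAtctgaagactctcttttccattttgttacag

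The first question was whether forced JUN changes the mRNA of the kinases that would phosphorylate it. In JUN WT against con, *MAP2K4* and *MAPK9* were at least 1.5-fold higher and *MAPK10* and *MAP3K11* at least 1.5-fold lower, 4 of the 9 members measured. Of all genes, 32.1% passed this threshold in either direction, 22.1% as higher and 10% as lower, beside 44.4% of the measured members. In bulk RNA, fewer cells with a transcript and less of it per cell cannot be told apart. The median difference of the 9 members was 0.22, beside 0.15 for all genes.

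*MAP2K4*, which encodes a kinase that phosphorylates JNK mainly on its activating tyrosine, lies on chromosome 17 of GRCh37 (hg19) from 11924146 to 12047147. Its level was 0.81 (con), 3.13 (JUN WT) and 2.39 FPKM (JUN AA), low in con and higher in both JUN libraries. Against con, JUN WT differed by 1.19 and JUN AA by 0.90, and among all genes 5.90% and 11.4% differed by as much in either direction. Of the members, *MAP2K4* differed most from con in JUN WT. As it was below 1 FPKM in con, *MAP2K4* passed the filter through the libraries in which it was high. The other MAP2K gene, *MAP2K7*, on chromosome 19 from 7968728 to 7979363, was at 17.4, 13.3 and 15.1 FPKM in con, JUN WT and JUN AA, differences of -0.37 and -0.20 against con. An antisense lncRNA covers 8.51% of the exon bases of *MAP2K7*, and the part of shared reads was not tested. Within each of these libraries *MAP2K7* mRNA stood above *MAP2K4* mRNA, by a factor of 21.5 (con), 4.24 (JUN WT) and 6.32 (JUN AA). A ratio within a library does not depend on how that library was scaled, and it was lower in both JUN libraries than in con. It can still depend on base composition. The transcript of *MAP2K7* has a GC content of 62.6% and that of *MAP2K4* 41.5%, and differences from con moved with GC content, as given below. The part of GC content in this ratio was not tested.

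Among the JNK genes themselves, *MAPK9* (chromosome 5, 179660143 to 179719099) was at 2.44 (con), 5.11 (JUN WT) and 2.39 FPKM (JUN AA). Con and JUN AA were thus nearly alike, with a difference of -0.020, or -0.28 once each library was rescaled to one common FPKM total, while JUN WT stood 0.83 above con and 0.85 above JUN AA. Among all genes, 17.1% differed by as much between JUN WT and con. *MAPK8* (chromosome 10, 49514682 to 49647403) was lower throughout, at 1.25 (con), 1.84 (JUN WT) and 1.12 FPKM (JUN AA). It was highest in JUN WT too, but its difference of 0.34 against con was under 1.5-fold. *MAPK10* (chromosome 4, 86911160 to 87515778) went the other way, with 1.66 (con), 0.75 (JUN WT) and 1.51 FPKM (JUN AA). Against con its difference was -0.61 (JUN WT) and -0.081 (JUN AA). *MAPK10* shares 3.07% of its exon bases with *ARHGAP24* and *PTPN13* on the opposite strand, and whether reads were counted by strand is not given in the sources used here. *ARHGAP24* was at 3.56, 3.35 and 3.22 FPKM in con, JUN WT and JUN AA and *PTPN13* at 3.56, 2.47 and 4.6 FPKM, so *PTPN13* was likewise lowest in JUN WT, and the part of shared reads in the *MAPK10* values was not tested.

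The make-up of JNK mRNA differed between the libraries. *MAPK9* held 45.6% of the summed FPKM of the 3 JNK genes in con, 66.4% in JUN WT and 47.6% in JUN AA. The share of *MAPK10* was 31.0%, 9.69% and 30.1% for these libraries, and that of *MAPK8* stayed between 22.3% and 23.9%. The sum itself was 5.34 (con), 7.69 (JUN WT) and 5.02 FPKM (JUN AA). *MAPK9* was the most abundant JNK mRNA in all 3 libraries. The same held in the JNKi table, where its share was 71.4% (MRC5), 69.9% (iCAFs) and 61.2% (iCAFs+JNKi). There the share of *MAPK8* was 21.0%, 26.4% and 30.0%, and that of *MAPK10* was 7.59%, 3.73% and 8.84%.

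**Figure D2:**
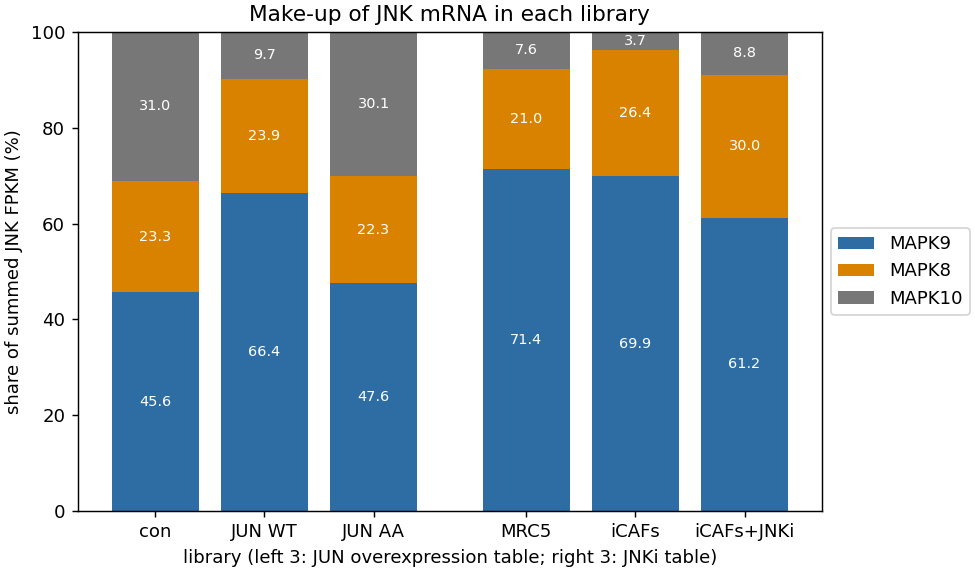
Share of the summed FPKM of the 3 JNK genes (%) in each of 6 libraries, stacked with *MAPK9* at the bottom, *MAPK8* in the middle and *MAPK10* on top. *MAPK9* is the largest part everywhere, from 45.6% in con to 71.4% in MRC5, and *MAPK10* is the smallest part in JUN WT and in the 3 libraries of the JNKi table.

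The MAP3K genes were spread widely in level. *MAP3K11* (chromosome 11, 65365227 to 65382853) was the most abundant member in all 3 libraries of this table, at 49.6 (con), 32.1 (JUN WT) and 43.5 FPKM (JUN AA). It was lowest in JUN WT, with a difference of -0.61 against con, and at -0.19 in JUN AA. *MAP3K5* (chromosome 6, 136878184 to 137114235) had 1.76, 2.25 and 1.47 FPKM in con, JUN WT and JUN AA, differences of 0.23 and -0.16 against con, the former coming to -0.16 with trends of GC content and length removed. *MAP3K1* (chromosome 5, 56111376 to 56191979) was the lowest member in each of the 3 libraries, with 0.58 (con), 0.11 (JUN WT) and 0.52 FPKM (JUN AA). At such levels and with reads unknown, these values cannot show whether *MAP3K1* differed. Its difference in JUN WT was -0.51, and -1.68 with a pseudocount of 0.1 in place of 1.

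The scaffold *MAPK8IP1* (chromosome 11, 45907202 to 45928016) differed most of the members between the JUN libraries as deposited, and *MAPK9* did with rescaled FPKM. Its level was 12.7 (con), 9.85 (JUN WT) and 24.6 FPKM (JUN AA), so JUN AA was high and JUN WT somewhat below con. The difference was 0.90 in JUN AA against con, -0.34 in JUN WT against con and -1.24 in JUN WT against JUN AA. Between JUN WT and JUN AA, 6.54% of all genes differed by as much. An antisense lncRNA covers 11.7% of the exon bases of *MAPK8IP1*, and reads of the pair cannot be told apart if strand was not used. *MAPK8IP3* (chromosome 16, 1756167 to 1820352) had 4.57, 5.5 and 4.19 FPKM in con, JUN WT and JUN AA, less than 1.5-fold apart, and its difference of -0.10 in JUN AA against con came to 0.11 with those trends removed. It shares 32 exon bases with *NME3*, which was at 131, 81.3 and 237 FPKM in con, JUN WT and JUN AA, a different pattern.

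In JUN AA against con, *MAP2K4* and *MAPK8IP1* were thus the 2 members of 9 past 1.5-fold, both higher, where 25.6% of all genes passed in either direction, 13.6% as higher and 12.0% as lower. The other 7 lay between -0.20 and -0.020. In JUN WT against JUN AA, a comparison that shares its libraries with the former ones, *MAPK9* was higher and *MAPK8IP1* lower by at least 1.5-fold, again 2 of 9, beside 34.2% of all genes, 21.8% as higher and 12.4% as lower. This last count depended on scaling. With FPKM rescaled to the same sum, *MAPK8*, *MAP3K5* and *MAPK8IP3* also passed as higher, and with differences centred on the median gene *MAPK10* and *MAP3K11* also passed as lower. Among all genes past 1.5-fold, the share of higher ones was 63.8% as deposited, 83.6% rescaled and 42.8% centred in that comparison. For JUN AA against con it was 53.1% as deposited and 22.8% rescaled, and for JUN WT against con 68.8% as deposited and 50.7% centred. In the comparisons of each JUN library with con, the members past the threshold were the same under these scalings. With trends of GC content and length removed, *MAPK9* in JUN WT against JUN AA came to 0.43 and no longer passed. *MAPK10* then passed as lower in that comparison, at -0.61.

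Differences of both JUN libraries from con moved with base composition. The canonical transcripts of *MAPK8*, *MAPK10*, *MAP2K4*, *MAP3K1*, *MAPK9* and *MAP3K5* have a GC content between 37.6% and 45.9%, and those of *MAP2K7*, *MAPK8IP1*, *MAPK8IP3* and *MAP3K11* between 62.6% and 66.6%. In JUN WT against con, Spearman's rho between the difference and GC content was -0.39 over 9393 genes, and in JUN AA against con it was -0.32. Genes are no independent replicates. The 3191 genes with a GC content from 37% to 46% had a median difference of 0.39, and the 879 genes from 62% to 67% had a median of -0.29. In JUN AA these medians were 0.15 and -0.074. The fall was not steady there, as medians of 20 bins were 0.39 at 36.0% GC, -0.26 at 53.5% and -0.052 at 66.2%. In JUN WT against JUN AA they were -0.22 at 36.0%, 0.46 at 50.4% and -0.29 at 66.2%. In JUN WT against con, *MAPK8*, *MAP3K5*, *MAP2K7*, *MAP3K11* and *MAPK8IP1* of the 9 measured members lay within the quartiles of genes of like GC content. *MAP2K4*, *MAPK9* and *MAPK8IP3* lay above them and *MAPK10* below. With the trends of GC content and length removed, *MAP2K4* stood at 0.76 and *MAPK10* at -0.75, still past 1.5-fold, whereas *MAPK9* came to 0.39 and *MAP3K11* to -0.22. *MAPK8IP3*, which is GC-rich and yet higher in JUN WT, came to 0.63. In JUN AA against con, the values with trends removed were 0.81 for *MAP2K4* and 1.04 for *MAPK8IP1*, and for *MAPK8IP1* in JUN WT against JUN AA the value was -1.15. The part of base composition in the deposited differences was not tested further.

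**Figure D3:**
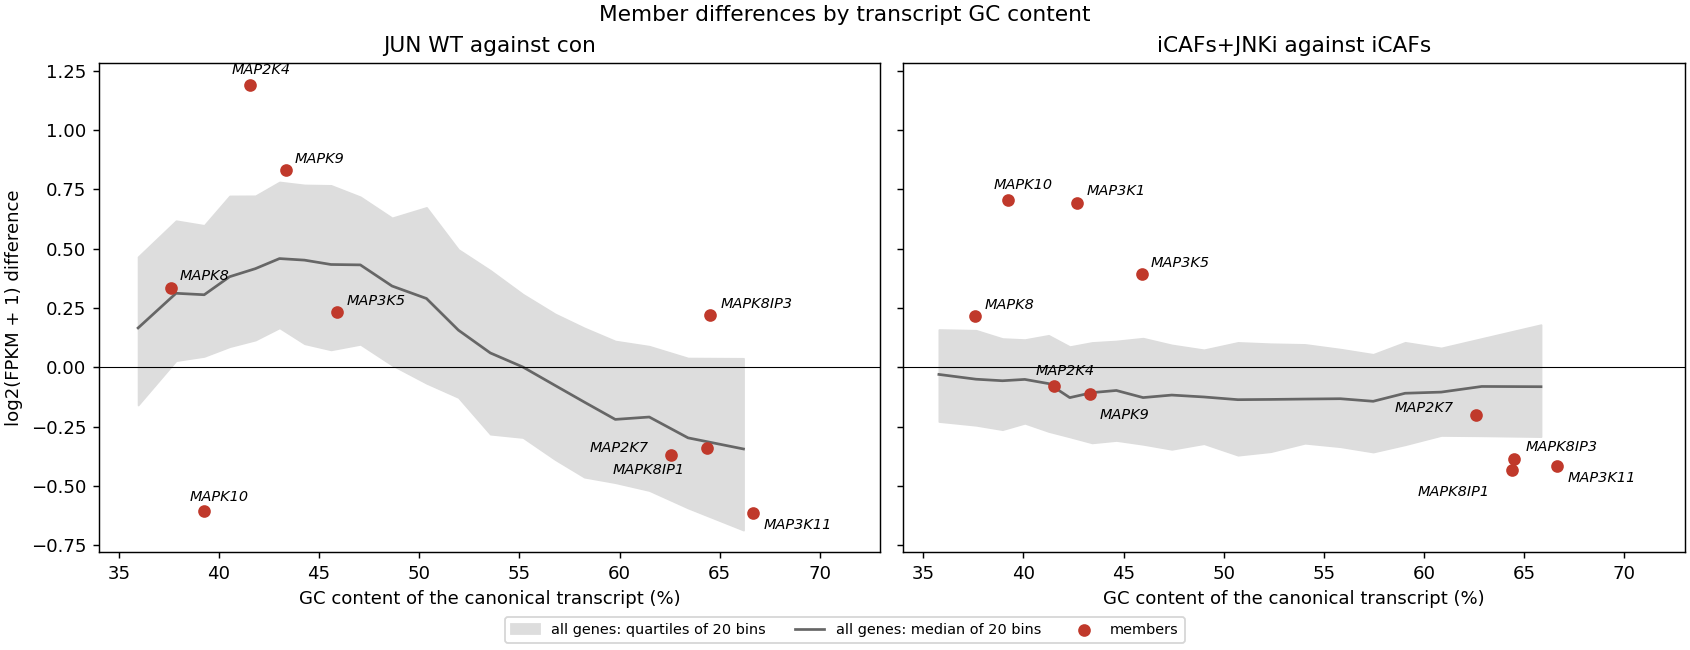
Difference in log2(FPKM + 1) of the members that passed the filter (points) against the GC content of their canonical transcript (%), with the median (line) and quartiles (band) of all genes in 20 bins, for JUN WT against con on the left and iCAFs+JNKi against iCAFs on the right. On the left the line falls towards the GC-rich end, and *MAP2K4*, *MAPK9* and *MAPK8IP3* lie above the band and *MAPK10* below it, and on the right the line is flat.

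The JNKi experiment asks how the pathway's own mRNA responded to tumour-conditioned medium and then to inhibition of JNK. In iCAFs against MRC5, no member reached 1.5-fold, 0 of 10, beside 11.0% of all genes, 4.66% as higher and 6.3% as lower. The members lay between -0.50 for *MAPK10* and 0.31 for *MAPK8*, with a median of -0.089 beside -0.061 for all genes. *MAPK9* was at 13.6 FPKM in MRC5 and 13.8 FPKM in iCAFs, *MAP2K4* at 9.34 and 9.88 FPKM, *MAP2K7* at 13.3 and 12.5 FPKM, and *MAP3K11* at 25.1 and 23.3 FPKM. These 4 genes differed by less than 0.10 on the log2 scale. The lowest members showed the larger values, *MAPK10* going from 1.45 to 0.73 FPKM and *MAP3K1* from 2.37 to 1.54 FPKM. With a pseudocount of 0.1 their differences were -0.89 and -0.59, past 1.5-fold.

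In iCAFs+JNKi against iCAFs, *MAPK10* and *MAP3K1* were at least 1.5-fold higher, 2 of 10 members, beside 12.7% of all genes in either direction, 5.17% as higher and 7.49% as lower. This comparison shares the iCAFs library with the former one. *MAPK10* was at 1.83 FPKM with the inhibitor, a difference of 0.71, and *MAP3K1* at 3.11 FPKM, a difference of 0.69. For each of the pair iCAFs was the low library and MRC5 lay between. *MAPK10*, at 0.73 FPKM in iCAFs as at 0.75 FPKM in JUN WT, passed the filter only through the libraries in which it was higher. Among all genes, 8.62% and 8.90% differed by as much as *MAPK10* and *MAP3K1*. *ARHGAP24*, which shares exon bases with *MAPK10*, was at 7.59 (MRC5), 8.31 (iCAFs) and 13.3 FPKM (iCAFs+JNKi), and *PTPN13* at 20.2, 11.4 and 12.7 FPKM. The part of shared reads was not tested here either.

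*MAPK9* and *MAPK8*, which hold most JNK mRNA and encode targets of the inhibitor, differed by less than 1.5-fold on the log2(FPKM + 1) scale as deposited. *MAPK9* was at 12.7 FPKM in iCAFs+JNKi, -0.11 against iCAFs, and *MAPK8* at 4.0 (MRC5), 5.20 (iCAFs) and 6.20 FPKM (iCAFs+JNKi). *MAPK8* was higher in iCAFs+JNKi than in iCAFs by 0.22 and than in MRC5 by 0.53. The latter came to 0.62 with a pseudocount of 0.1, past 1.5-fold. The MAP2Ks were at 9.30 FPKM for *MAP2K4* and 10.8 FPKM for *MAP2K7* with the inhibitor, differences of -0.079 and -0.20 against iCAFs. With rescaled FPKM the small differences of *MAPK9* and *MAP2K4* came to 0.0093 and 0.040, the other sign. *MAP2K7* mRNA exceeded *MAP2K4* mRNA by a factor of 1.42 (MRC5), 1.27 (iCAFs) and 1.16 (iCAFs+JNKi). *MAP3K5*, an oxidant-sensing kinase, was at 11.0 (MRC5), 12.1 (iCAFs) and 16.2 FPKM (iCAFs+JNKi), so the inhibited library was the high one, by 0.39 over iCAFs. *MAP3K11* was at 17.3 FPKM with the inhibitor, -0.41 against iCAFs, and its mRNA stood above that of *MAP3K5* by a factor of 2.28 (MRC5), 1.93 (iCAFs) and 1.07 (iCAFs+JNKi).

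Both scaffolds were lowest in iCAFs+JNKi. *MAPK8IP1* was at 8.46 (MRC5), 7.24 (iCAFs) and 5.10 FPKM (iCAFs+JNKi), and *MAPK8IP3* at 24.6, 20.3 and 15.4 FPKM. Against iCAFs these differences were -0.43 and -0.38, under 1.5-fold, and against MRC5 they were -0.63 and -0.64. The latter were the 2 of 10 members past 1.5-fold in iCAFs+JNKi against MRC5, beside 21.7% of all genes in either direction, 7.22% as higher and 14.4% as lower. On the deposited scale with a pseudocount of 1, a 2-fold difference was reached by *MAP2K4* in JUN WT against con and by *MAPK8IP1* in JUN WT against JUN AA, and by no member in the other 4 comparisons. This depended on the setting, as *MAPK10* came to 1.21 in iCAFs+JNKi against iCAFs and *MAP2K4* to 1.45 in JUN AA against con with a pseudocount of 0.1, and with rescaled FPKM *MAPK8IP1* came to -0.99 and *MAPK9* to 1.20 in JUN WT against JUN AA. The share of all genes at 2-fold was 10.3% and 12.3% in those comparisons, 9.06% in JUN AA against con, 3.65% in iCAFs against MRC5, and 4.22% and 6.81% with JNKi against iCAFs and MRC5. The calls of *MAPK8IP1* and *MAPK8IP3* depended on scaling, and the median of all genes was -0.16 in this comparison. Centred on it, *MAPK8IP1* and *MAPK8IP3* came to -0.47 and -0.48 and no longer passed, while *MAPK8* at 0.69 and *MAP3K5* at 0.68 did, and the same pair passed as higher with rescaled FPKM. Among all genes past 1.5-fold, 33.4% were higher as deposited, 49.6% rescaled and 56.3% centred. In iCAFs+JNKi against iCAFs the share was 40.8% as deposited and 59.4% rescaled, but *MAPK10* and *MAP3K1* were the members past the threshold under both and when centred. Over all genes the JNKi differences varied little with base composition, with a Spearman's rho of -0.050 across 10648 genes and medians of -0.082 and -0.074 in the GC-poor and GC-rich ranges given above. The 4 GC-rich members lay between -0.43 and -0.20 with JNKi, where all genes had quartiles of -0.31 and 0.12. Of the 6 others, 4 were higher as deposited, beside 37.4% of all genes. With rescaled FPKM all 6 were, but the median of all genes was then 0.014, so more genes were higher than lower on that scale. *MAPK9* and *MAP2K4* were then at only 0.0093 and 0.040.

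**Figure D4:**
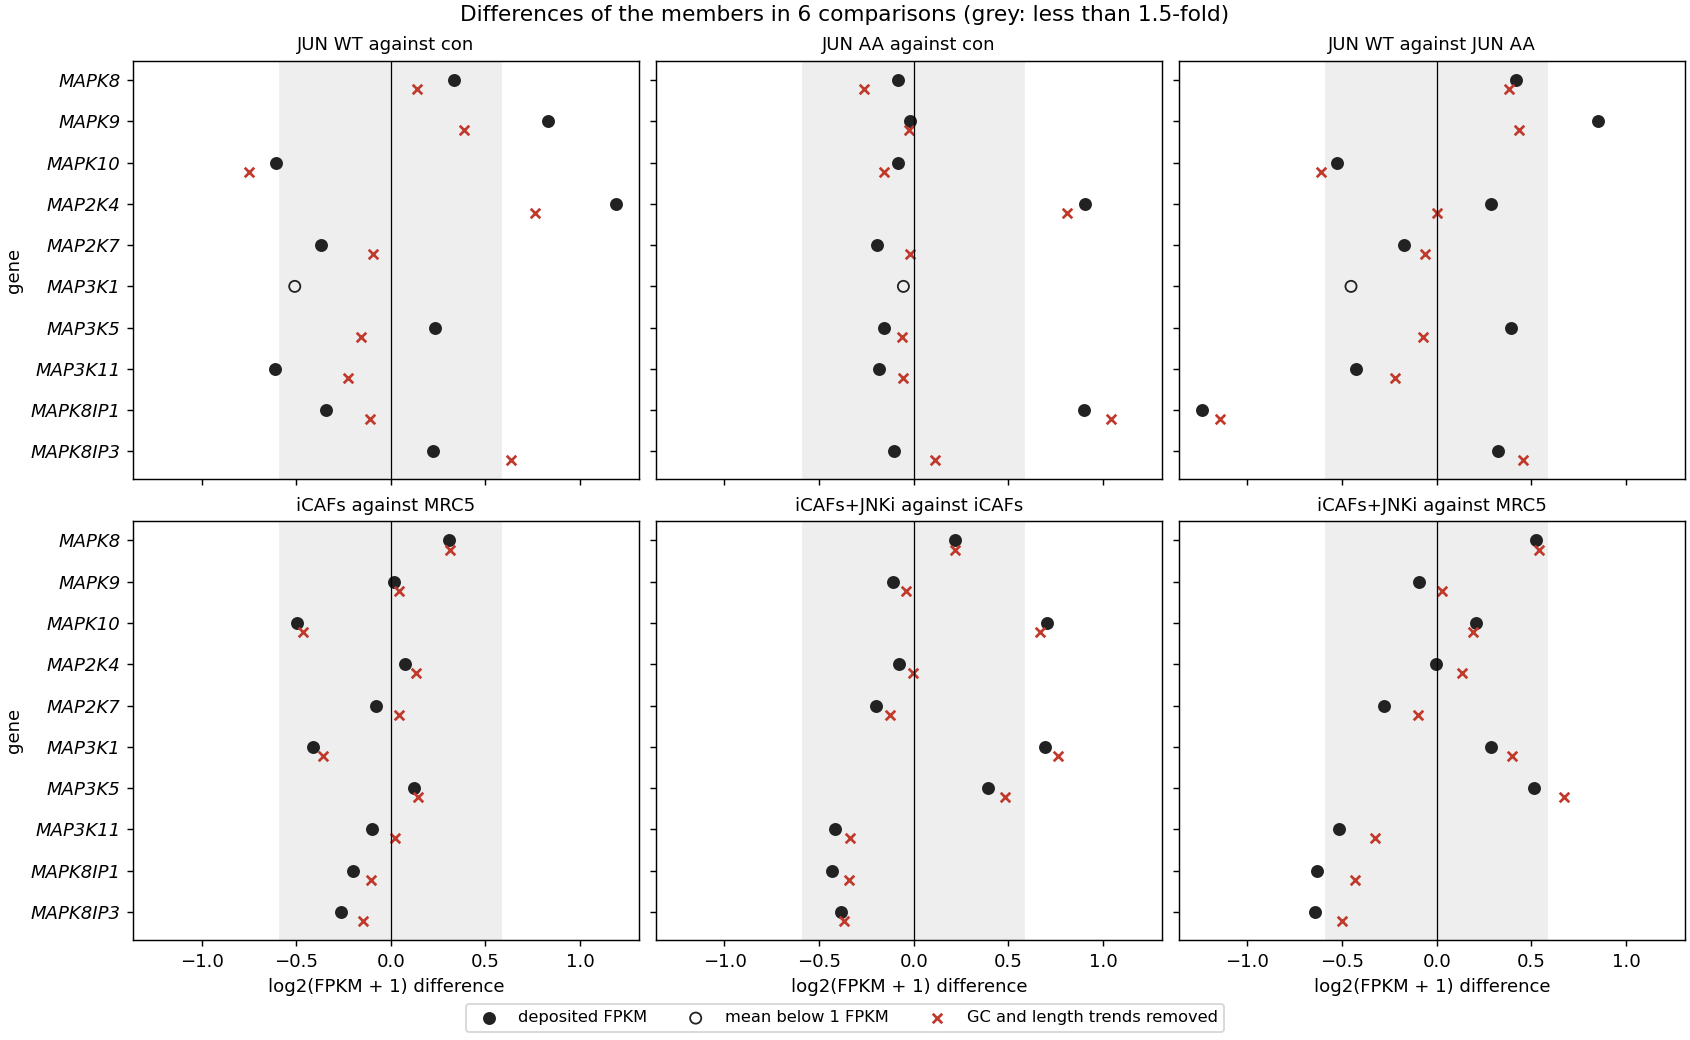
Differences in log2(FPKM + 1) of the members in 6 comparisons, 1 library against 1 library each, with filled circles for deposited FPKM, open circles where the mean of the table is below 1 FPKM, and crosses with GC and length trends removed; grey marks less than 1.5-fold. In iCAFs against MRC5 every circle lies in the grey range, and in JUN WT against con *MAP2K4* at 1.19 is the farthest.

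The order of levels was stable at its ends. In the JUN overexpression table *MAP3K11* was first in each library and *MAP3K1* last, and *MAP2K7* and *MAPK8IP1* took the next places in either order. As *MAPK8IP3* came 4th in each, the GC-rich members stood above all GC-poor ones in that table. The part of base composition in this order was not tested. In the JNKi table *MAP3K11* led and *MAPK8IP3* came next in MRC5 and iCAFs, and in iCAFs+JNKi *MAP3K11*, *MAP3K5* and *MAPK8IP3* lay between 17.3 and 15.4 FPKM. *MAPK10* was last in all 3 libraries, with *MAP3K1* next. Whether neighbours in these orders differ beyond their error cannot be said from 1 library each.

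Genes around the 10 members were read from 7 further lists, of other MAP3Ks, MAP4Ks, other scaffolds, upstream adaptors and GTPases, JNK substrates, and the p38 and ERK branches. For JUN overexpression, 62 of them passed the filter, and 29.0% were past 1.5-fold in JUN WT against con, a share under the 32.1% of all genes. The 62 include *JUN*, which the adenovirus carried in both JUN libraries, so its rise over con was set by the design. Among JNK substrates, with 9 measured, none but the delivered gene *JUN* was higher by 1.5-fold in JUN WT. *BMF*, which encodes a pro-apoptotic BH3-only protein, and *JUND* were lower, *BMF* with 5.83 (con), 0.47 (JUN WT) and 1.90 FPKM (JUN AA), so it was low in both JUN libraries. Of 12 upstream adaptors and GTPases, 4 were higher by 1.5-fold in JUN WT and 0 lower, beside 22.1% of all genes higher, led by *GADD45A*, encoding a stress-induced activator of MAP3K4, with a difference of 1.34. With trends of GC content and length removed, *GADD45A* at 0.99 and *GADD45B* at 0.75 still passed, and *RIPK1* at 0.42 and *RAC1* at 0.091 did not. Of the 9 other scaffolds and adaptors measured, 1 was higher and 2 were lower by 1.5-fold in JUN WT. *SH3RF3*, whose protein belongs to the POSH family of JNK scaffolds, was at 4.91 (con), 1.59 (JUN WT) and 1.5 FPKM (JUN AA), lower in both JUN libraries, with differences of -1.19 and -1.24. *SH3RF1*, the gene of POSH itself, was higher by 0.63 in JUN WT than in con, and by 0.78 than in JUN AA. Among the MAP4Ks, *MINK1* was lowest in JUN WT against con, at -0.62. Of the other MAP3Ks, *MAP3K10*, which encodes MLK2 and is a relative of *MAP3K11*, was the 1 of 11 past 1.5-fold in JUN WT, higher by 1.07. In JUN AA 3 of the 11 passed, *MAP3K10* at 1.35, *MAP3K13* at 0.87 and *MAP3K12* at -0.71. The p38 kinase kinase gene *MAP2K3* was higher by 1.19 in JUN WT, similar to *MAP2K4*, and *MAPK11*, a p38 gene, was at -1.06. In the ERK branch *MAP2K1* led with 1.11 and *MAP2K2* was lowest at -0.71. With the same trends removed in JUN WT against con, *SH3RF1* came to 0.24, *MINK1* to -0.37 and *MAP2K2* to -0.49, under 1.5-fold. *BMF*, *JUND*, *SH3RF3*, *MAP3K10*, *MAP2K3*, *MAPK11* and *MAP2K1* stayed past it. *GADD45B* was the gene of these lists other than *JUN* that differed most between JUN WT and JUN AA, at 26.6 (con), 45.0 (JUN WT) and 10.6 FPKM (JUN AA). In JUN AA against con, 13 of the 62 genes were past 1.5-fold, or 21.0% beside 25.6% of all genes, among them the GTPase gene *CDC42* at 0.69, *MAP2K3* at 0.62 and *GADD45B* at -1.26. In JUN WT against JUN AA 18 were, or 29.0% beside 34.2%, with *MAP2K1* at 0.98, *MAPK14* at 0.85, *MAP3K3* at 0.63, *TRADD* at -0.59, *MAP2K2* at -0.79, *BMF* at -0.98 and *MAPK11* at -1.23.

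For JNKi, 67 of these genes passed. In iCAFs against MRC5, *MAP3K4* at 0.78 and *MAP3K6* at -0.63 were the 2 past 1.5-fold, or 2.99% beside 11.0% of all genes. In iCAFs+JNKi against iCAFs 7 passed, or 10.4% beside 12.7%. *BMF* was higher by 1.77, from 2.55 to 11.1 FPKM, the opposite of its direction in both JUN libraries. *JUN* was lower, from 55.3 to 21.1 FPKM, and so were *JUND*, *GADD45A*, *TNIK*, *MAPK11* and *MAP2K1*, with differences between -0.93 and -0.59. Of the 12 other MAP3Ks measured, 0 reached 1.5-fold against iCAFs. In iCAFs+JNKi against MRC5 12 of the 67 passed, or 17.9% beside 21.7% of all genes. The highest was *BMF* at 2.07, and *MAP4K3* at 0.82, *MAP3K2* at 0.67 and *SH3RF3* at 0.66 led their lists. The lowest of their lists were *JUN* at -1.40, *GADD45A* at -1.39, *TNIK* at -1.13, *ARRB2* at -0.80 and *MAPK12* at -0.75.

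Genes of like pattern were sought over 4 differences, each JUN library against con, iCAFs against MRC5 and iCAFs+JNKi against iCAFs, by Euclidean distance among the 10020 genes that passed the filter in both tables. The 3 genes closest to *MAPK8* were *ZNF672*, *CMIP* and *GPBP1L1*, at distances of 0.092, 0.12 and 0.14, and 32 genes lay within 0.25 of it. *MAPK8IP1* had the largest difference of any member as deposited, though *MAP2K4* in JUN WT against con was larger with rescaled FPKM (1.46) or a pseudocount of 0.1 (1.83). The 3 genes nearest to *MAPK8IP1* were *RPS2*, *MRPS23* and *C11orf83*, at 0.13, 0.15 and 0.15, and 11 genes lay within 0.25. *RPS2* has many processed pseudogenes, so its own values are uncertain.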

How the data were processed

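RNA of MRC5 cells was sequenced in 6 libraries, 1 per condition, and each column of both tables carries the name of its library. Reads were aligned by the authors with HISAT2 2.1.0 (default settings, hg19), who deposited FPKM per gene from StringTie 2.1.1 (versions from the submitters' processing notes), scaled to exon length and mapped fragments of each library. The annotation, strand setting and read numbers are not given in the sources used here, so depth and the precision of single values are unknown.

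From these FPKM, differences of log2(FPKM + 1) were computed within each table in Python 3.11.15 with numpy 2.4.6 and pandas 2.3.3, over genes whose mean reached 1 FPKM. No test was made, because 1 library per condition leaves no replicate error. Where a symbol had several rows, that of highest mean was used. Positions, exon overlaps, GC content and length came from GENCODE v44 lifted to GRCh37, with values for 91.1% and 90.4% of the genes in the JUN overexpression and JNKi tables and for all 10 members. Trends were removed as the median difference in 20 bins of GC content and then of length. Promoter windows came from RefSeq. The members, gene lists and thresholds were chosen with earlier results of these data known. By rule, the named genes are all members, *JUN*, the largest rise and fall of each list in each comparison, and the 3 genes nearest in pattern to each of 2 members. Of the list extremes, those under 1.5-fold are not printed. *JUND*, *RIPK1*, *RAC1* and *MAP3K13*, where they were no such extremes, and the genes sharing exons with members were named after their values were seen. The computation was tested on simulated data. Alternatives were another pseudocount, rescaled or centred values, other filters, removal of trends and summed rows. Figures were drawn with matplotlib 3.10.9.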

Additional observations from a re-analysis of the deposited data

How the results depend on the processing

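With 1 library per condition, no result could be checked by leaving out a replicate, and no paired analysis was possible because no condition has a second library. A value was taken to have moved at a change of over 0.25 on the log2 scale, 10 percentage points for a share, and 1.5 times for a count. Under the filter of 5 FPKM, 3 members were left in the JUN overexpression table, and 1 of them was past 1.5-fold in JUN WT against con, 1 in JUN AA against con and 1 in JUN WT against JUN AA. For JNKi, 8 were left, and 0 were past 1.5-fold in iCAFs+JNKi against iCAFs. The count in JUN WT against JUN AA was 4 with a pseudocount of 0.1, 5 with rescaled FPKM and 4 when centred, in place of 2. In iCAFs against MRC5 it was 2 with a pseudocount of 0.1 and 1 with rescaled FPKM, in place of 0, and in iCAFs+JNKi against MRC5 it was 1 with GC and length trends removed, in place of 2, where *MAPK8IP1* and *MAPK8IP3* no longer passed as lower and *MAP3K5* passed as higher. Of the genes on the 7 further lists, 13 were past 1.5-fold in JUN AA against con, 7 with the filter of 5 FPKM and 21 with rescaled FPKM. Rescaling also gave 30 in place of 18 in JUN WT against JUN AA and 12 in place of 7 in iCAFs+JNKi against iCAFs, and centring gave 1 in place of 2 in iCAFs against MRC5. The share of *MAPK8* in con was 33.9% with *MAPK10* left out. Summing rows of the same symbol moved no member. Of the single differences, 18 of 60 moved with rescaling, 9 of 60 with a pseudocount of 0.1, 9 of 57 with trends removed and 0 of 60 when centred, and no difference past 1.5-fold changed sign under these settings. The cause of these changes was not tested beyond the fewer genes that a stricter filter leaves.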
